A study of Mus musculus with 8 samples.

Results

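Autophagy delivers cytoplasm and organelles to the lysosome, and mitophagy is the branch that removes mitochondria. The transcripts of 32 genes that run these steps were followed in the hearts of diabetic mice, from the kinase complex that starts the process to the proteins of the lysosomal membrane. They were chosen as a list of gene symbols and are grouped here by textbook role, 5 for initiation, 6 for nucleation of the membrane, 11 for the ATG8 proteins and their conjugation, 3 for cargo reception, 4 for mitophagy and 3 for the lysosome and its regulator. All 32 were found among the 55487 genes of the count table, and all 32 were among the 13648 genes with enough reads to be tested.

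All 8 libraries came from the heart of db/db mice, which carry a defective leptin receptor and become obese and diabetic. One group of 4 libraries, vehicle 1 to 4, was from mice given vehicle, and the other 4, DIZE 1 to 4, were from mice given DIZE. DIZE is diminazene aceturate, an antiprotozoal drug that is also used as an activator of angiotensin-converting enzyme 2. The comparison asks what the drug does in the diabetic heart, and there was no non-diabetic group among these libraries. The sources used here do not give the dose, the length of treatment, the age and sex of the mice or the animal behind each library. The p-values therefore speak of the spread between libraries, which may be technical. The titles of vehicle 1 and 2 and of DIZE 1 and 2 hold the letters db and the other titles do not, and what this marks is not given. The sample descriptions split the libraries otherwise, with db for all 4 vehicle libraries and for DIZE 1 and 2. Below, db and no db refer to the titles alone.

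In an autophagic cell the ULK kinase complex, under the control of the nutrient sensors mTOR and AMPK, switches on a lipid kinase complex built around Beclin 1. A cup-shaped membrane then grows, small ubiquitin-like proteins of the ATG8 family (the LC3 and GABARAP proteins) are attached to it, and receptors that bind both ATG8 proteins and cargo fill it before it fuses with the lysosome. In heart muscle, which lives on mitochondria and renews its cells little, damaged mitochondria are tagged by the kinase PINK1 or recognised by receptors in their outer membrane such as BNIP3, NIX (gene Bnip3l) and FUNDC1. The transcription factor TFEB switches on many lysosomal and autophagy genes through sites that hold the letters CACGTG.

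Promoter sequence is shown because Tfeb is itself one of the 32 genes, and because its motif can be looked for beside its candidate targets. RefSeq windows on GRCm38.p6, from 250 bases before to 50 bases after a gene's start, were matched by symbol for 25 of the 32 genes. CACGTG, which reads the same on both strands, was in the window of 6 of these 25 genes, Lamp1, Atg3, Atg7, Bnip3, Atg5 and Atg14. It was in 7.15% of all 32851 windows in the table. The longer letters GTCACGTG, searched on both strands and overlapping CACGTG, were in the windows of 4 of the 25 genes (Lamp1, Atg3, Atg7 and Atg14) and in 2.25% of all windows. The stretches below run 5′ to 3′ along the gene's own strand with CACGTG in capitals. The Lamp1 stretch is shown for its repeats, those of Atg3, Atg7 and Bnip3 for their matches, and those of Ulk1 and Pink1 as parts of windows with no match, from genes whose values are described in full below.
Lamp1, the 100 bases before the start, chr8:13159061-13159160, plus strand: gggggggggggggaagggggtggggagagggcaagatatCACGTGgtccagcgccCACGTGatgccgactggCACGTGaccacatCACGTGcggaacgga
Atg3, bases 100 to 51 before the start, chr16:45158729-45158778, plus strand: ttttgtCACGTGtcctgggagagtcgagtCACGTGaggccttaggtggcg
Atg7, bases 150 to 101 before the start, chr6:114670946-114670995, plus strand: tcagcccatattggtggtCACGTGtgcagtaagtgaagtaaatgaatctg
Bnip3, bases 150 to 101 before the start, chr7:138909607-138909656, minus strand: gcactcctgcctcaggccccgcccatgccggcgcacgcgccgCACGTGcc
Ulk1, bases 100 to 51 before the start, chr5:110810132-110810181, minus strand: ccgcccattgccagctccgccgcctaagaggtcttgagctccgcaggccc
Pink1, bases 100 to 51 before the start, chr4:138326347-138326396, minus strand: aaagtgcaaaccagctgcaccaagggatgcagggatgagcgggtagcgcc
Lamp1 held CACGTG 4 times within its last 100 bases, beginning 61, 45, 28 and 15 bases before the start, and only 8 of the 32851 windows held it 4 or more times. The RefSeq starts used for Atg7 and Atg14 lie well inside their GENCODE genes, downstream of the first annotated starts. A match of letters is a description of the window and not a bound site.

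Total counts ranged from 7447664 to 10161623 reads per library. Levels are given as CPM, the usual depth-scaled counts, computed over the tested genes with the TMM scaling factor of each library. Vehicle 1 stood apart from the other 7 libraries, and the analysis with library weights gave it the lowest weight, 0.27. The summed level of 8 cardiomyocyte markers was 27209 CPM in vehicle 1, 37347 to 45831 CPM in vehicle 2 to 4 and 41917 to 48034 CPM in DIZE. The sum of 8 fibroblast markers was 2526 CPM in vehicle 1, 1345 to 1632 CPM in vehicle 2 to 4 and 1192 to 1659 CPM in DIZE, and that of 8 macrophage markers was 1003, 522 to 612 and 499 to 555 CPM. Not every marker followed its sum. The cardiomyocyte markers Myl2, Tnni3 and Pln in vehicle 1 lay within the range of vehicle 2 to 4, and the others lay below it. Of the fibroblast markers, Col1a1 lay below that range (45.2 CPM), Col3a1 lay within it and the others lay above it. Of the macrophage markers, Csf1r lay below it (78.1 CPM) and the others above it. Fewer cells of a type and less RNA per cell cannot be told apart in such libraries. Markers of erythroid cells summed to 125 to 236 CPM in vehicle and 34.2 to 109 CPM in DIZE, and atrial markers to 35.7 to 824 and 13.6 to 130.5 CPM. Hepatocyte markers summed to 1762 CPM in vehicle 2 and to at most 9.02 CPM in each other library, and lymphoid markers to at most 2.26 CPM. Skeletal muscle markers, some of which the heart also expresses, summed to 940.3 to 1436 CPM in vehicle and 889 to 1583 CPM in DIZE, with the myosin Myh4 at 0 in all 8.

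Per kilobase of principal transcript, the scale on which genes can be compared, the 32 genes spanned from 3.93 CPM per kb for Atg14 to 349 CPM per kb for Map1lc3a in vehicle. At the top, after Map1lc3a, lay Sqstm1 (266 CPM per kb), Pink1 (227), Lamp1 (199), Gabarap (172), Map1lc3b (122) and Lamp2 (99.2). These genes encode 3 of the 5 ATG8 proteins, the cargo receptor p62, the mitophagy kinase and both lysosomal membrane proteins of the set. The lowest levels, after Atg14, were those of Atg7 (5.50 CPM per kb), Uvrag (6.63), Atg12 (8.13), Pik3c3 (9.04), Becn1 (9.47) and Atg4b (10.1), which encode enzymes and scaffolds of nucleation and conjugation. The order depends on the transcript chosen, and over the union of all exons the vehicle level of Map1lc3b was 41.0 CPM per kb and that of Lamp2 37.4. Becn1 shares 3104 exonic bases with Cntd1 on the other strand (mean 0.225 CPM). Uvrag shares 1589 with Gm45187, also on the other strand (mean 0.0449 CPM).

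**Figure D1:**
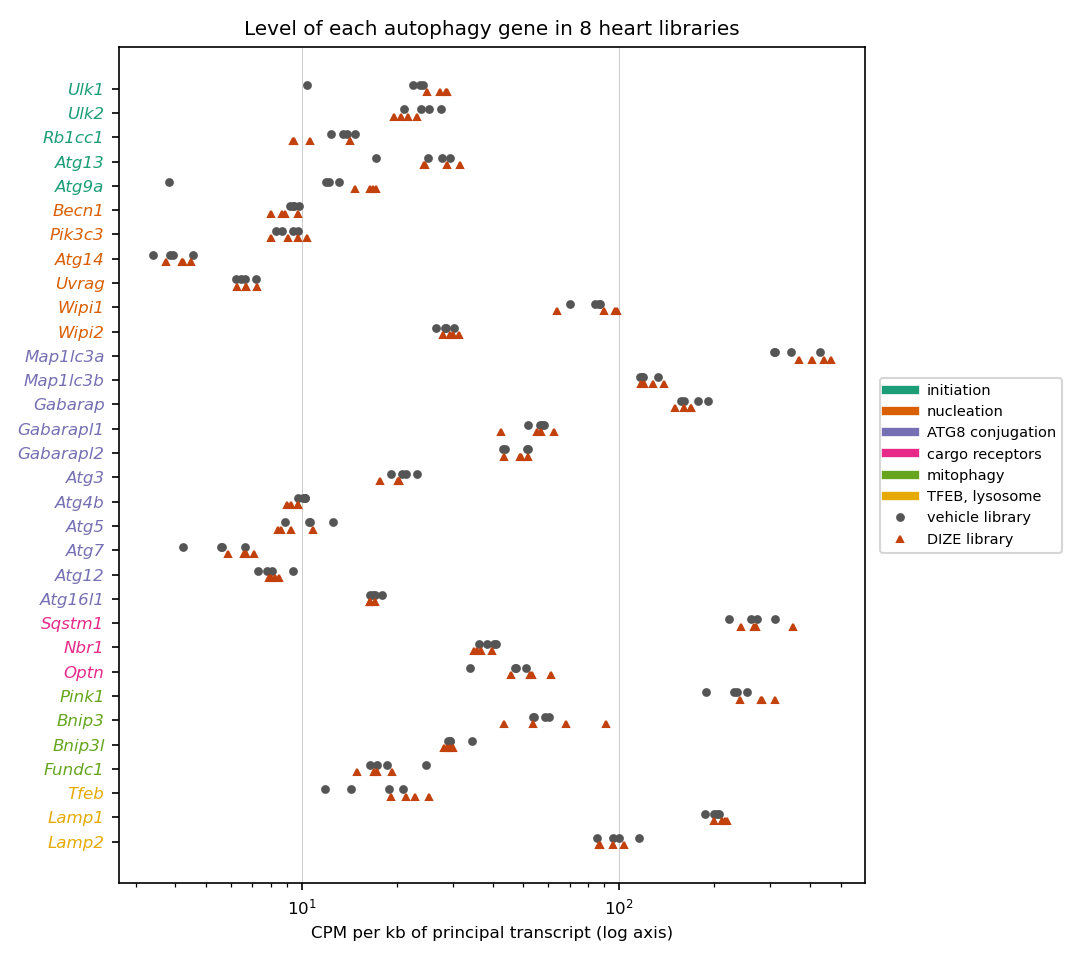
Level of each of the 32 genes in CPM per kb of principal transcript (log axis), with 1 point per library (circles vehicle, triangles DIZE) and gene names coloured by role. The points of the 2 groups interleave for most genes, and the vehicle point far to the left for Ulk1 and Atg9a is vehicle 1.

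None of the 32 genes passed edgeR's quasi-likelihood test for DIZE against vehicle at an adjusted p of 0.05, and the smallest adjusted p was 0.220 (Pink1). The test called 5 of all 13648 genes, 0.0366%. DESeq2 called 0 of the 32 (4.44% of all genes) and limma-voom with library weights also called 0 of the 32 (3.27% of all genes), with smallest adjusted p-values of 0.165 and 0.0691. At an unadjusted p under 0.05 there were 4 of 32, Pink1, Tfeb, Rb1cc1 and Atg9a, which is 12.5% against 19.4% of all genes. Leaving out 1 vehicle library at a time, vehicle 1 to 4, gave counts of 3, 6, 1 and 3 of the 32, beside 16.4, 22.7, 16.2 and 18.2% of all genes. Leaving out DIZE 1 to 4 in the same way gave 0, 2, 0 and 2, beside 16.2, 18.2, 14.2 and 15.1% of all genes. In direction, 19 of the 32 were higher and 13 lower in DIZE, while 48.2% of all tested genes were higher. The median log2 fold change of the 32 genes was 0.03, beside -0.01 for all tested genes, and single values ran from -0.32 to 0.67.

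The 2 groups did not overlap for 2 of 32 genes, 6.25%, against 12.4% of all genes. These 2 genes, Ulk1 and Atg9a, were higher in DIZE, a direction without overlap that held for 7.17% of all genes, and 0 of the 32 were lower without overlap (5.26% of all genes). Without vehicle 2 there were 7 such genes (22.0% of all genes), without DIZE 1 there were 5 (16.6%) and without DIZE 2 there were 6 (19.2%). Fewer libraries make overlap less likely for any gene, so Ulk1 and Atg9a could hardly drop out of these counts. For 27 of the 32 genes, 84.4%, the 95% interval of the fold change lay within 1.5-fold in both directions, which was so for 46.7% of all tested genes, a share that is not matched for level. The exceptions were Ulk1, Rb1cc1, Atg9a, Bnip3 and Tfeb. The spread between libraries of a group was small for many of these genes, since 12 of the 32 fell below the 10th percentile of within-group SD among tested genes and 5 lay above the median.

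**Figure D2:**
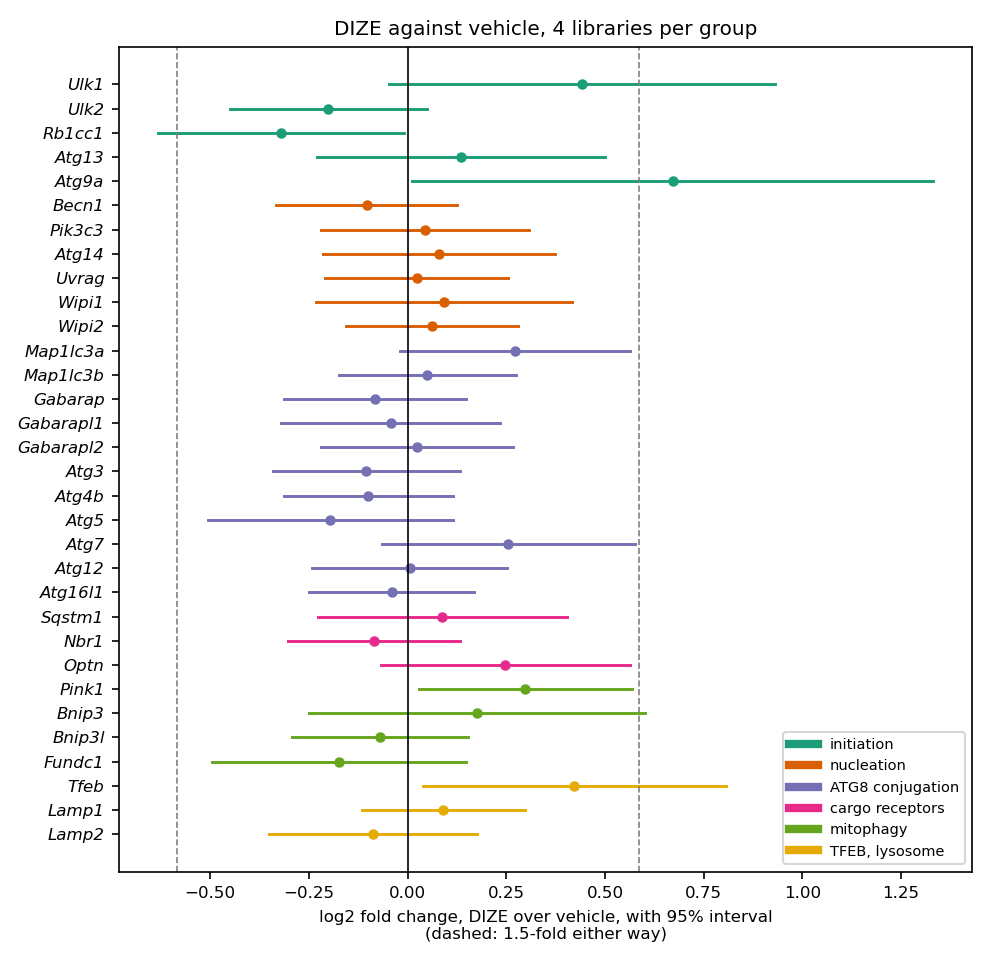
Log2 fold change, DIZE over vehicle, for each of the 32 genes (points) with its 95% interval (lines), coloured by role; dashed lines mark 1.5-fold in either direction. The 5 intervals that cross a dashed line are those of Ulk1, Rb1cc1, Atg9a, Bnip3 and Tfeb.

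The initiation genes held the largest differences of the set, in both directions. Ulk1 (ENSMUSG00000029512, chromosome 5 from 110784488 to 110810097, GRCm38 as all positions here) encodes the kinase that starts autophagy. It had 54.1, 124, 117 and 126 CPM in vehicle 1 to 4 and 149.8, 149, 129.8 and 142 CPM in DIZE 1 to 4. All 4 DIZE libraries lay above all 4 vehicle libraries, and vehicle 1 lay far below the other 3. The means were 105 ± 34.2 and 143 ± 9.32 CPM (SD, n = 4). The log2 fold change was 0.44 ± 0.22 SE (edgeR adjusted p = 0.300), and it was 0.22 without vehicle 1. In the libraries with db in the title it was 0.76, and in the others 0.16.

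Atg9a (ENSMUSG00000033124, chromosome 1 from 75180860 to 75192196) encodes the multispanning membrane protein whose vesicles seed the growing membrane. Its levels were 15.7, 50.02, 48.9 and 53.9 CPM in vehicle and 69.2, 70.4, 60.7 and 67.7 CPM in DIZE. The pattern was that of Ulk1, with no overlap between the groups and vehicle 1 far below the rest. With means of 42.1 ± 17.7 and 67.0 ± 4.33 CPM (SD, n = 4), its log2 fold change of 0.67 ± 0.30 SE was the largest of the 32 genes (edgeR adjusted p = 0.253). Without vehicle 1 the value was 0.39 (edgeR adjusted p = 0.0989), and within the 2 title forms it was 1.10 (db) and 0.32 (no db). Its within-group spread was at the 96.1 percentile of tested genes. Vehicle 1 was also the library with low cardiomyocyte and high fibroblast and macrophage sums, which not every marker of these lists followed. The part of these cells in the values of Ulk1 and Atg9a was not tested. Both genes kept groups without overlap when any 1 library was left out, which groups already apart could hardly fail to do. With the GC and length trend removed, only Atg9a of the 32 genes kept them. Ulk1 then overlapped, its highest vehicle library (125.36 CPM) lying above its lowest DIZE library (118.73 CPM). Atg9a shares 1832 exonic bases with Gm29253 on the same strand, which had a mean of 0 CPM. It also shares 46 with Ankzf1 on the other strand, which had a mean of 18.4 CPM. The sources used here do not say whether reads were counted by strand or how reads in shared exons were assigned.

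Ulk2 (ENSMUSG00000004798, chromosome 11 from 61775649 to 61855073), the paralogous kinase, was lower in DIZE on average. It had 121, 137, 158 and 144 CPM in vehicle and 124, 132, 118 and 113 CPM in DIZE, so the groups overlapped. The means were 139.9 ± 15.3 and 122 ± 8.61 CPM (SD, n = 4) and the log2 fold change was -0.20 ± 0.11 SE (edgeR adjusted p = 0.351). Within the title forms, each with 2 libraries per group, the log2 value was -0.39 with no db (edgeR adjusted p = 0.0448) and -0.0011 with db. The fit to the libraries with no db, added after the data were seen, called 9.57% of all genes in it. Ulk2 and Rb1cc1 of the 32 were among them, and the difference between the title forms was not tested.

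The ratio of the 2 kinase transcripts was examined after their values had been seen and is given without a test. In counts scaled to CPM and not per length, Ulk1 over Ulk2 was 0.447, 0.902, 0.745 and 0.870 in vehicle and 1.21, 1.13, 1.10 and 1.26 in DIZE. Ulk2 counts exceeded Ulk1 counts in every vehicle library, and the reverse held in every DIZE library. After removal of the trend that each library had on GC content and on transcript length, the ratios were 0.648, 0.898, 0.755 and 0.888 in vehicle and 1.07, 1.12, 0.968 and 1.09 in DIZE. The groups still did not overlap, although DIZE 3 fell below 1.

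The remaining initiation genes encode scaffolds of the kinase complex. Rb1cc1 (FIP200, ENSMUSG00000025907, chromosome 1 from 6206197 to 6276648) had 112, 94.5, 106 and 103 CPM in vehicle and 80.9, 108, 71.6 and 72.3 CPM in DIZE. Of the DIZE libraries, 3 lay below every vehicle library, and DIZE 2 was within the vehicle range. From means of 104 ± 7.44 and 83.2 ± 17.1 CPM (SD, n = 4), its log2 fold change was -0.32 ± 0.14 SE (edgeR adjusted p = 0.248), the lowest of the 32. The value was -0.53 in the libraries with no db in the title (edgeR adjusted p = 0.0140) and -0.13 in those with db. These fits have 2 libraries per group and were added after the data were seen. The fit with no db called 9.57% of all genes and leaves out DIZE 2. With the GC and length trend removed the Rb1cc1 value was -0.07. Rb1cc1 shares 558 exonic bases with 4732440D04Rik on the other strand (mean 5.79 CPM). Atg13 had 61.0 CPM in vehicle 1, 89.0 to 105 CPM in vehicle 2 to 4 and 86.4 to 112 CPM in DIZE (log2 0.14 ± 0.17 SE), and its value was -0.01 without vehicle 1.

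**Figure D3:**
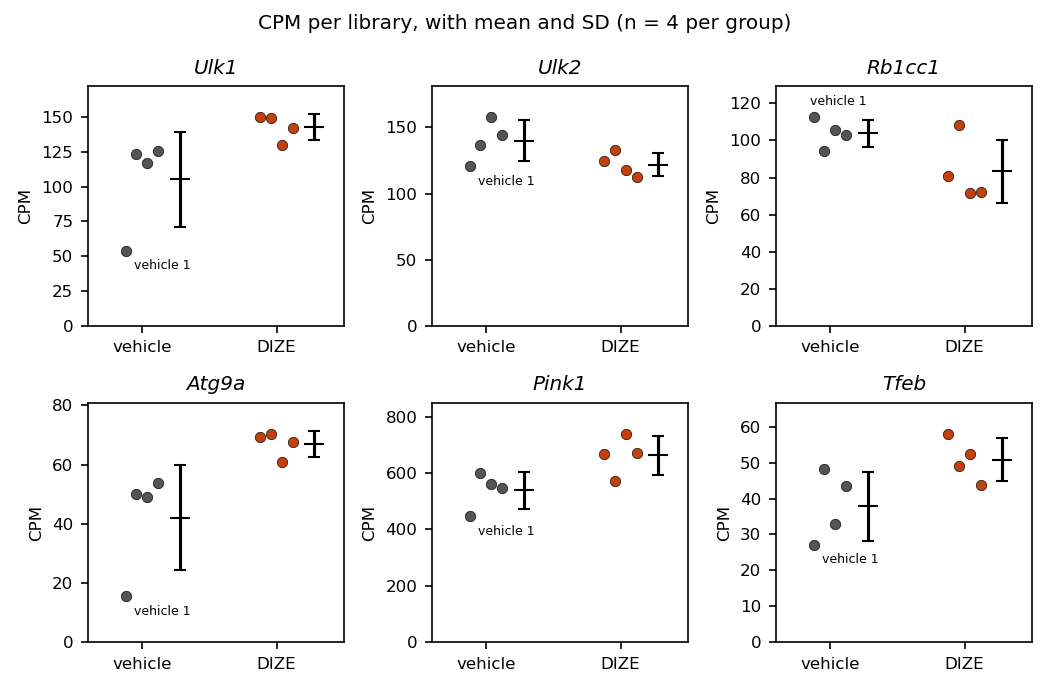
CPM per library for Ulk1, Ulk2, Rb1cc1, Atg9a, Pink1 and Tfeb (points, 4 per group; axes start at 0) with mean and SD as bars beside them; vehicle 1 is labelled. Ulk1 and Atg9a show no overlap between groups, with vehicle 1 at 54.1 and 15.7 CPM, and the other 4 genes overlap.

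The nucleation genes were close between the groups. Becn1, the Beclin 1 scaffold, had 40.1 to 42.9 CPM in vehicle and 34.9 to 42.5 CPM in DIZE (log2 -0.10 ± 0.10 SE). Pik3c3, the catalytic lipid kinase VPS34, had 27.1 to 31.7 and 26.1 to 33.9 CPM (log2 0.04 ± 0.12). Its partners Atg14, which directs it to autophagy, and Uvrag, which directs it to endosomes, had log2 values of 0.08 ± 0.13 and 0.02 ± 0.11. The lipid-binding effectors Wipi1 and Wipi2 had log2 values of 0.09 ± 0.15 and 0.06 ± 0.10. Of these 6 genes, 5 were higher and 1 lower, 0 passed, and all 6 intervals lay within 1.5-fold. Wipi1 varied most among the DIZE libraries, with 131 CPM in DIZE 2 and 184 to 203 CPM in the other 3.

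Among the ATG8 genes, Map1lc3a (LC3A) was the most abundant and had the largest difference. It had 342, 478, 346 and 387 CPM in vehicle and 451, 519.7, 492 and 412 CPM in DIZE. The highest vehicle library lay above 2 of the DIZE libraries, and 3 vehicle libraries lay below all of DIZE. The means were 388 ± 63.1 and 469 ± 47.0 CPM (SD, n = 4), with a log2 fold change of 0.27 ± 0.13 SE (edgeR adjusted p = 0.289). Map1lc3b, the LC3 form most used as a marker of autophagosomes, had 295 to 336 and 298 to 350.3 CPM, with a log2 value of 0.05 (95% interval -0.18 to 0.27). Map1lc3b shares 58 exonic bases with Zcchc14 on the other strand (mean 58.6 CPM). The GABARAP branch, which acts in closing the membrane and in fusion, had log2 values of -0.08 for Gabarap, -0.04 for Gabarapl1 and 0.02 for Gabarapl2, with SE of 0.11 to 0.13.

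As a share of the summed CPM per kb of the 5 ATG8 genes, Map1lc3a made up 46.6 ± 3.62% in vehicle and 51.8 ± 2.68% in DIZE (SD, n = 4). Gabarap made up 26.4, 20.9, 23.2 and 21.9% in vehicle and 20.4, 19.9, 19.2 and 20.4% in DIZE. The Gabarap share was thus lower in each DIZE library than in each vehicle library, by little in the case of vehicle 2. The shares were not recomputed with the GC and length trend removed. Under that removal DIZE 1 had more Gabarap than vehicle 2 (236 against 231 CPM) and less Map1lc3a (431 against 444 CPM). Separate groups cannot be assumed there. These shares are parts of a whole, were chosen for display after the values were seen, and carry no test.

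The conjugation enzymes attach ATG8 proteins to lipid. Atg7, the activating enzyme, had 15.9, 24.9, 20.9 and 21.1 CPM in vehicle and 22.1, 25.1, 24.8 and 26.6 CPM in DIZE. Its log2 fold change was 0.26 ± 0.15 SE (edgeR adjusted p = 0.355), and vehicle 2 lay within the DIZE range. Atg5, a part of the ligase, had 20.8 to 29.6 CPM in vehicle and 19.8 to 25.5 CPM in DIZE (log2 -0.20 ± 0.14). Atg3, the transfer enzyme whose stretch with CACGTG is printed above, had a log2 value of -0.10 ± 0.11, and the protease gene Atg4b had -0.10 ± 0.10. Atg12, which is joined to ATG5, had 38.7 ± 4.36 and 38.9 ± 1.31 CPM (SD, n = 4), a log2 value of 0.00 ± 0.11. Atg16l1, which places the ligase on the membrane, had 53.4 ± 1.92 and 51.9 ± 0.988 CPM, a log2 value of -0.04 ± 0.10. Of the 11 ATG8 and conjugation genes, 5 were higher and 6 lower, 0 passed, and all 11 intervals lay within 1.5-fold.

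Of the cargo receptors, Sqstm1 (p62), which carries ubiquitinated proteins, had 455, 633, 553 and 530.3 CPM in vehicle and 721, 493, 541 and 552 CPM in DIZE. DIZE 1 was the highest of the 8 libraries and vehicle 1 the lowest, and the other 6 interleaved (log2 0.09 ± 0.14 SE, edgeR adjusted p = 0.767). The log2 value of Sqstm1 was -0.05 with the GC and length trend removed, and -0.04 without DIZE 1. Nbr1, a receptor that resembles p62, had 173 to 196 CPM in vehicle and 167 to 190.1 CPM in DIZE (log2 -0.09 ± 0.10). Optn, the optineurin receptor of PINK1-driven mitophagy, had 88.7, 123, 134 and 124 CPM in vehicle and 160.1, 139, 119.8 and 137 CPM in DIZE. Of the Optn values, 3 DIZE libraries lay above all of vehicle and DIZE 3 lay within (log2 0.25 ± 0.14, edgeR adjusted p = 0.362).

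Among the mitophagy genes Pink1 (ENSMUSG00000028756, chromosome 4 from 138313409 to 138326307), the kinase that marks depolarised mitochondria, had the highest mean CPM of all 32. It had 447, 601, 559.7 and 546 CPM in vehicle and 666, 573, 739 and 671 CPM in DIZE. Of the DIZE libraries, 3 lay above all of vehicle, and DIZE 2 lay below vehicle 2. The means were 539 ± 65.1 and 662 ± 68.3 CPM (SD, n = 4) and the log2 fold change 0.30 ± 0.12 SE, with a 95% interval of 0.03 to 0.57 (edgeR adjusted p = 0.220). Pink1 kept its direction in both title forms, each with 2 libraries per group, with 0.25 (db) and 0.35 (no db, edgeR adjusted p = 0.0527). With the GC and length trend removed its log2 value was 0.06.

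The 3 receptors of the mitochondrial outer membrane had smaller mean differences than Pink1 as reported. With the GC and length trend removed this order turned for Bnip3, with a log2 value of 0.35 beside 0.06 for Pink1. Bnip3 (ENSMUSG00000078566, chromosome 7 from 138890836 to 138909519), which responds to hypoxia, had 94.8, 103, 106 and 93.9 CPM in vehicle and 119.8, 159.6, 93.9 and 76.1 CPM in DIZE. The vehicle libraries were close together, and the DIZE libraries spread on both sides of them, from 76.1 to 159.6 CPM. Its means were 99.3 ± 5.88 and 112 ± 36.3 CPM (SD, n = 4) and its log2 fold change 0.18 ± 0.19 SE (edgeR adjusted p = 0.644). DIZE 1 and 2, the higher libraries, have db in their titles, and within that title form the log2 value was 0.50, while it was -0.23 in the other. Neither passed the edgeR test (adjusted p = 0.583 and 0.284). Bnip3l (NIX), its close relative, had 111 CPM in vehicle 1 and 91.4 to 97.5 CPM in the other 7 libraries (log2 -0.07 ± 0.10). Fundc1 had 48.9 CPM in vehicle 1, 32.7 to 36.9 CPM in vehicle 2 to 4 and 29.6 to 38.3 CPM in DIZE (log2 -0.17 ± 0.15, and -0.03 without vehicle 1).

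Tfeb (ENSMUSG00000023990, chromosome 17 from 47737030 to 47792419), the regulator of lysosomal genes, had 27.2, 48.1, 32.9 and 43.5 CPM in vehicle and 58.0, 48.9, 52.3 and 43.9 CPM in DIZE. Only vehicle 2 reached into the DIZE range, and vehicle 4 lay just under it. The means were 37.9 ± 9.57 and 50.8 ± 5.93 CPM (SD, n = 4), and the log2 fold change was 0.42 ± 0.18 SE (edgeR adjusted p = 0.223). It was 0.29 without vehicle 1 and 0.14 with the GC and length trend removed. Lamp1 and Lamp2, which encode the main glycoproteins of the lysosomal membrane, had log2 values of 0.09 ± 0.09 and -0.09 ± 0.12. Lamp1, with the 4 copies of CACGTG printed above, had means of 444 ± 19.4 and 472 ± 18.6 CPM (SD, n = 4), and its interval (log2 -0.12 to 0.30) lay within 1.5-fold. The 6 genes with CACGTG in their window had a median log2 fold change of 0.08 (4 higher, 2 lower), beside 0.05 for the 19 with a window and no CACGTG (12 higher, 7 lower). No member of either set passed.

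**Figure D4:**
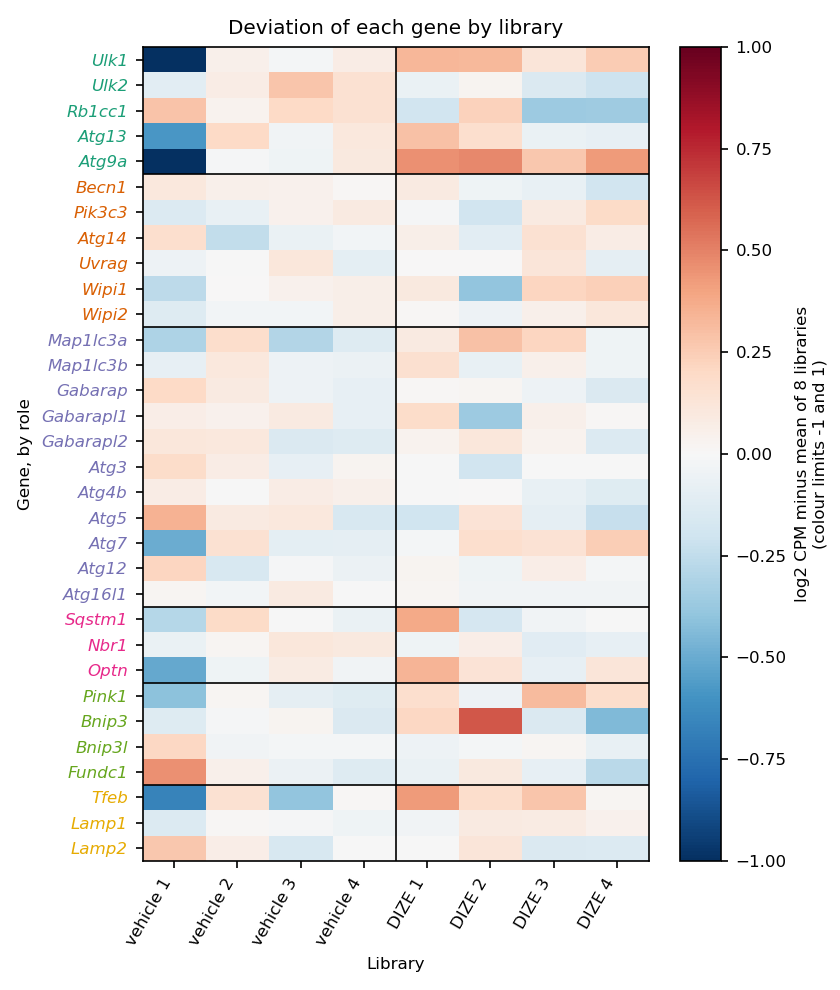
Log2 CPM of each of the 32 genes (rows, by role) in each of the 8 libraries (columns) minus the gene's mean over the libraries; the colour scale ends at -1 and 1. Vehicle 1 has the deepest blue cells (Ulk1 and Atg9a) and also red cells such as Fundc1, and Bnip3 is highest in DIZE 2.

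Vehicle 1 was the lowest of the 8 libraries for 12 of the 32 genes and the highest for 10. The 12 genes at their lowest there, among them Ulk1, Atg9a, Pink1, Tfeb and Map1lc3a, had a median GC content of 53.5% in their longest transcript. The 10 at their highest, among them Rb1cc1, Fundc1, Lamp2 and Bnip3l, had a median of 43.1%. The rank correlation (Spearman's rho, a description over genes that share a library and are not independent) between a gene's deviation in vehicle 1 and its GC content was -0.83 over the 32 genes and -0.46 over 13638 tested genes. In DIZE 1, 3 and 4 it was 0.61, 0.71 and 0.68 over the 32 genes, and 0.29, 0.39 and 0.38 over the tested genes. In the other 4 libraries it lay between -0.27 and 0.27 over the 32 genes.

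The log2 fold changes followed the same order. Their rho with GC content was 0.78 over the 32 genes and 0.39 over all 13638 genes, and without vehicle 1 it was 0.61 over the 32. After the trend of each library on GC content and transcript length was removed, it was 0.22 over the 32 genes and -0.02 over all. Under this removal the log2 values were 0.51 for Atg9a, 0.24 for Ulk1, -0.17 for Ulk2, 0.19 for Map1lc3a and 0.35 for Bnip3, and the median of the 32 was 0.05, beside 0.01 for all genes. Of the 32 genes, 1 (Atg9a) then had groups without overlap (11.7% of all genes), and Atg9a was also the 1 gene with an unadjusted p under 0.05 (19.0% of all genes). GC content moved with the libraries and with the fold changes of these genes, and where this came from was not tested.

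**Figure D5:**
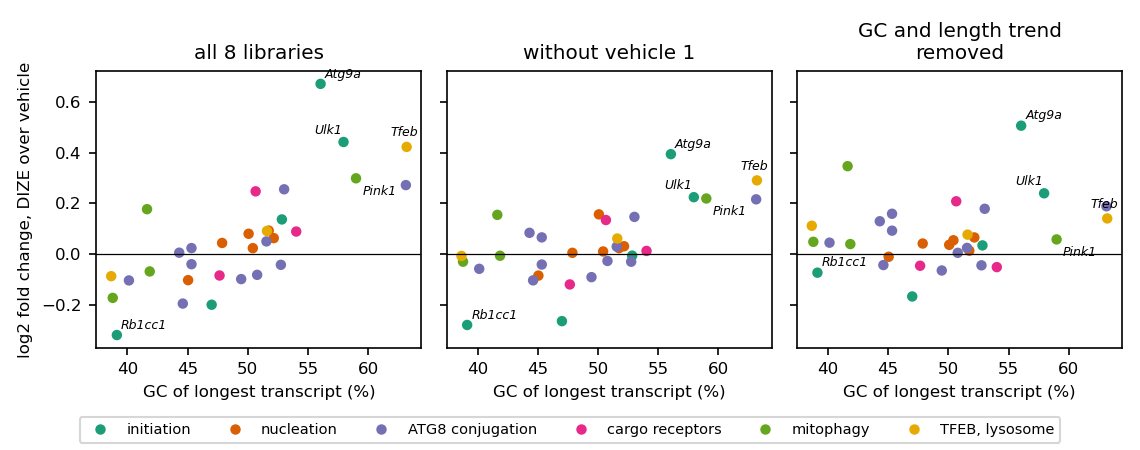
Log2 fold change, DIZE over vehicle, against the GC content of the longest transcript for the 32 genes (points, coloured by role), with all 8 libraries, without vehicle 1, and with each library's GC and length trend removed. The upward slope of the left panel (rho 0.78) is less in the middle panel (0.61) and least in the right panel (0.22), where Atg9a and Bnip3 lie highest.

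The rest of the pathway was read from lists of 165 further genes, of which 159 were tested. None passed the edgeR test. DESeq2 called 7 of them (Hif1a, Deptor, Retreg1, Tecpr1, Mul1, Prkab1 and Rictor), beside 4.44% of all genes. With limma-voom 5 were called (Hif1a, Zkscan3, Tecpr1, Retreg1 and Deptor), beside 3.27% of all genes. Both counts are near the shares of all genes. In DIZE 100 were higher and 59 lower, with a median log2 fold change of 0.10, beside 48.2% higher and a median of -0.01 over all tested genes. An unadjusted p under 0.05 was found for 32 of them, 20.1%, close to the 19.4% of all genes. For 26 genes, 16.4%, the groups did not overlap (22 higher, 4 lower), against 12.4% of all genes. The 4 genes of each list with the smallest unadjusted p are named below.

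The regulators above and beside TFEB held the smallest adjusted p of these lists. Hif1a, the hypoxia-inducible factor whose protein drives Bnip3, had 96.9, 97.7, 106 and 96.6 CPM in vehicle and 124, 156, 157 and 158 CPM in DIZE. All DIZE libraries lay above all vehicle libraries, and vehicle 1 did not stand apart. The log2 fold change was 0.58 ± 0.11 SE (edgeR adjusted p = 0.0815, DESeq2 adjusted p = 0.000184), and 0.70 with the GC and length trend removed. Zkscan3, a repressor of autophagy genes, had 84.2 ± 10.3 and 62.0 ± 12.4 CPM (SD, n = 4; log2 -0.44), and Mitf, a relative of TFEB, had 65.8 ± 11.2 and 80.7 ± 9.63 CPM (log2 0.29). Trp53inp2, which promotes autophagosome formation, had 580.2 CPM in vehicle 1, 953 to 1153 CPM in vehicle 2 to 4 and 957 to 1315 CPM in DIZE (log2 0.32, and 0.15 without vehicle 1). Of 10 tested genes in this list, 7 were higher and 3 lower. A short list of hypoxia targets, which includes Bnip3, had 4 higher and 5 lower of 9 tested and a median of -0.03. P4ha1, a collagen prolyl hydroxylase, overlapped between the groups and had a log2 value of -0.32 ± 0.16. Pdk1, which restrains mitochondrial pyruvate use, was lower without overlap, with 290.0 to 353 CPM in vehicle and 239.9 to 286 CPM in DIZE (log2 -0.22 ± 0.11, edgeR adjusted p = 0.296). The glucose transporter Slc2a1 and the oxygen sensor Egln3 overlapped, with log2 values of 0.31 and 0.32, or 0.15 and 0.14 without vehicle 1.

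In the list of nutrient sensing above the ULK complex, 18 of 31 tested genes were higher and 13 lower, with a median of 0.03. Deptor, a binding partner and inhibitor of mTOR, had 32.5, 27.2, 34.9 and 25.9 CPM in vehicle and 18.7, 16.1, 19.9 and 21.2 CPM in DIZE. Every DIZE library lay below every vehicle library (log2 -0.66 ± 0.14 SE, edgeR adjusted p = 0.0888, DESeq2 adjusted p = 0.00431). Prkab1 and Prkag2, regulatory subunits of AMPK, had log2 values of 0.50 ± 0.14 (edgeR adjusted p = 0.126) and 0.37 ± 0.13 (adjusted p = 0.172). Rictor, the scaffold of mTOR complex 2, had 34.0 ± 9.31 and 21.6 ± 3.17 CPM (SD, n = 4), with overlap.

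Of 20 other mitophagy genes tested, 14 were higher and 6 lower, with a median of 0.14. An unadjusted p under 0.05 was found for 7 of the 20, beside 19.4% of all genes, and 6 of the 20 were higher without overlap, beside 7.17% of all genes. Mul1 and Usp30, a ubiquitin ligase and a deubiquitinase of the mitochondrial outer membrane that act in opposite ways, had log2 values of 0.38 ± 0.11 SE and 0.41 ± 0.13 SE (edgeR adjusted p = 0.128 and 0.144). Mfn2, which fuses mitochondria and is a target of PINK1, had 548, 1059.7, 1005 and 1093 CPM in vehicle and 1374, 1433, 1335 and 1343 CPM in DIZE. It resembled Ulk1 and Atg9a in that all of DIZE lay above all of vehicle and vehicle 1 lay far below (log2 0.57 ± 0.19, edgeR adjusted p = 0.155, and log2 0.38 without vehicle 1). Phb2, an inner membrane receptor for LC3, had 136 ± 21.6 and 179 ± 15.5 CPM.

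Of 13 tested further cargo receptors, 7 were higher and 6 lower. Retreg1 (FAM134B), a receptor for autophagy of the endoplasmic reticulum, had 441, 492, 477 and 451 CPM in vehicle and 612, 663, 559.8 and 606 CPM in DIZE. The groups did not overlap, and vehicle 1 lay near the rest of its group. The log2 fold change was 0.39 ± 0.10 SE (edgeR adjusted p = 0.103, DESeq2 adjusted p = 0.00406), and 0.43 with the GC and length trend removed. Calcoco1, another receptor of the endoplasmic reticulum, had 202 ± 39.8 and 272 ± 42.0 CPM (SD, n = 4), with overlap. Ncoa4, the ferritin receptor, and Wdfy3, a scaffold for protein aggregates, had log2 values of -0.24 ± 0.12 and -0.39 ± 0.20, both with overlap.

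Other core genes (19 tested) had 13 higher and 6 lower and a median of 0.05. Ambra1, a scaffold that joins Beclin 1 and ULK1, had 38.8 ± 5.68 and 50.6 ± 2.32 CPM (SD, n = 4) without overlap (log2 0.38 ± 0.12, edgeR adjusted p = 0.148). The protease gene Atg4d and Rubcn, an inhibitor of the Beclin 1 complex, overlapped, with log2 values of 0.20 ± 0.12 and 0.19 ± 0.13. Atg2a, a lipid-transfer partner of ATG9A, had 26.5 CPM in vehicle 1, 62.8 to 66.6 CPM in vehicle 2 to 4 and 58.0 to 76.0 CPM in DIZE (log2 0.32, and 0.09 without vehicle 1). Fusion genes (15 tested) had 9 higher and 6 lower and a median of 0.17. In that list Tecpr1, which tethers autophagosomes to lysosomes, had 57.2 ± 10.1 and 82.6 ± 10.7 CPM (log2 0.53 ± 0.15, edgeR adjusted p = 0.118). Rilp, an effector of the late endosomal GTPase Rab7, had 32.3 to 55.3 CPM in vehicle and 53.3 to 66.9 CPM in DIZE (log2 0.46 ± 0.16, edgeR adjusted p = 0.164). Like Tecpr1, it had groups that overlapped. Vps11 and Vps16, subunits of the HOPS tether, had log2 values of 0.34 ± 0.12 and 0.22 ± 0.11, and both were higher without overlap.

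Lysosomal hydrolases and membrane proteins (28 tested) had 19 higher and 9 lower and a median of 0.10. Ctsz, a cathepsin, was lower without overlap, with 45.2 to 60.9 CPM in vehicle and 29.6 to 42.1 CPM in DIZE (log2 -0.47 ± 0.15 SE, edgeR adjusted p = 0.148). Naglu, a hydrolase of heparan sulfate, had 9.75 to 14.9 CPM in vehicle and 14.5 to 24.9 CPM in DIZE, with overlap (log2 0.53 ± 0.20, edgeR adjusted p = 0.185). Gaa, the lysosomal enzyme that breaks down glycogen, had 70.6, 247, 206 and 234 CPM in vehicle and 297, 281, 329.6 and 313 CPM in DIZE. Psap, the precursor of the saposins, had 875, 1822, 1635 and 1694 CPM in vehicle and 2138, 1933, 2241 and 2045 CPM in DIZE. Both repeated the pattern of Ulk1 and Atg9a, without overlap and with vehicle 1 far below (log2 0.69 ± 0.31 and 0.47 ± 0.19, edgeR adjusted p = 0.253 and 0.219), and without vehicle 1 their log2 values were 0.41 and 0.28. Subunits of the proton pump that acidifies the lysosome (15 tested) had 10 higher and 5 lower and a median of 0.08. Atp6v0a1 had 49.5, 135, 123 and 126 CPM in vehicle and 176, 190.0, 170.5 and 156 CPM in DIZE, again without overlap and with vehicle 1 far below (log2 0.68 ± 0.25, edgeR adjusted p = 0.188, and log2 0.44 without vehicle 1). Atp6v0c, Atp6v1b2 and Atp6v1f had log2 values of 0.29 ± 0.12, 0.23 ± 0.10 and -0.27 ± 0.12, and of these Atp6v1b2 was higher without overlap.

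Removing the GC and length trend moved several of these values by more than 1.5 times. Nearer to 0 lay Mul1 (log2 0.15), Usp30 (0.24), Ambra1 (0.22), Calcoco1 (0.18), Naglu (0.27), Rictor (-0.40), Prkab1 (0.32), Ncoa4 (-0.11), Atg4d (0.06) and Rubcn (0.06). The same held for Gaa (0.45), Vps11 (0.22), Pdk1 (-0.14), Slc2a1 (0.17) and Atg2a (0.12). Hif1a (0.70), Retreg1 (0.43), Atp6v0a1 (0.73), Mitf (0.39) and Ctsz (-0.58) kept values at least as large in size as reported.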

How the data were processed

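RNA of 8 heart samples was extracted with TRIzol, selected for poly(A) and read as pairs on a NovaSeq instrument with a stranded kit, per the labels' protocols. The deposited values are raw read counts for each Ensembl gene, whole numbers that the authors had not normalized. STAR 2.7.3, HTSeq 0.6.1p1, edgeR, R 4.1 and mm10 are named, per the submitters' processing notes, without their settings or strand option. There were 0 columns of other samples. Groups came from the treatment label and replicate numbers from accession order.

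From the counts, edgeR 4.0.16 in R 4.3.3 (TMM factors, filterByExpr with a minimum count of 10 and minimum total of 15, robust quasi-likelihood test, two-sided, no covariate) was fitted to 13648 genes. Benjamini-Hochberg adjustment ran over all of them, and an adjusted p under 0.05 was called. The scripts were tested on simulated data with known changes. The edgeR test recovered 19.4% of 1.5-fold, 64.1% of 2-fold and 95.2% of 4-fold changes there, so most simulated 1.5-fold changes were missed. The changed genes were drawn at random from all tested genes. Only 5 of the 32 genes lay above the median within-group SD of tested genes, so these shares need not hold for the 32. No 2 libraries agreed within sampling noise (lowest chi-square per degree of freedom 5.54). Alternatives were DESeq2 1.42.0, limma-voom (limma 3.58.1) with library weights, other factors and filters, title form and title number as blocks, removal of GC and length trends, and leaving out each library. Each title form alone was added after seeing the data. Symbols, positions, overlaps, lengths and GC content came from GENCODE M21 (55227 genes matched), and levels per kb used the longest principal transcript.

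The 32 genes and the pathway and marker lists were chosen with earlier results of these data known. All 32 are described, together with the 4 tested genes of each pathway list with the smallest unadjusted p, and markers by their summed levels. Counts of the 32 ranged from 99 reads in a library (Atg14) to 7313 (Pink1).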

Additional observations from a re-analysis of the deposited data

Results flagged for a closer look

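In each group of 4 libraries, the gap of the highest or lowest library to its nearest neighbour was divided by the group's range, and values above Dixon's 95% critical value for 4 libraries were marked. Chance marks about 1 in 20 independent groups, but these groups share their libraries, so no excess can be read from a count. Of the 64 groups of the 32 genes, 7 were marked, and 4 of the 7 were vehicle 1. In vehicle 1 they were Ulk1 at 54.1 CPM (other vehicle libraries 117 to 126), Atg9a at 15.7 (48.9 to 53.9), Wipi1 at 143 (173 to 179) and Bnip3l at 111 (93.9 to 95.2). The others were Map1lc3b in vehicle 2 at 336 CPM (295 to 302), Atg3 in DIZE 2 at 36.4 (41.5 to 41.6) and Atg16l1 in DIZE 1 at 53.4 (51.3 to 51.4). For Atg3 and Atg16l1 the gap was large only beside the very small range of the other 3 libraries.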

How the results depend on the processing

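Over all genes, 5 were called as reported (3 higher, 2 lower), 606 with DESeq2, 386 with no filter, 446 with limma-voom, 9 with title form as a block, 0 with the replicate block (title number), 0 to 240 with 1 library left out, 0 in the libraries with db in the title alone and 1349 in those with none. Without vehicle 2 the count was 240, without vehicle 1 it was 9, without vehicle 3 it was 1, and it was 0 without vehicle 4 or any DIZE library. Of the 32 genes, 0 were called in each of these fits except the libraries with no db in the title alone, which called 2 (Ulk2 at log2 -0.39 and Rb1cc1 at -0.53). Their median log2 fold change stayed between 0.00 and 0.05. Genes with no overlap numbered 2 as reported (12.4% of all genes), 4 with upper quartile factors (12.6%), 1 with the GC and length trend removed (11.7%) and 2 to 7 with 1 library left out (14.7 to 22.0%). Title numbers did not pair the libraries (correlations of same-numbered libraries -0.14 to 0.02).

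Of 558 recomputed log2 values of single genes, 525 kept their direction and side of the threshold. The direction turned in 31 values of 14 genes, none above 0.18 in size as reported, and the cause was not tested. Turned values for Atg12 were -0.012 with upper quartile factors and -0.0066 with a minimum count of 30. With limma-voom they were 0.023 for Gabarapl1, -0.014 for Atg13 and -0.012 for Bnip3, and under the replicate block -0.021 for Gabarapl2, -0.028 for Atg12 and -0.045 for Uvrag. Removing the GC and length trend gave 0.0043 for Gabarap, 0.044 for Atg3, 0.092 for Atg16l1, -0.052 for Sqstm1, 0.039 for Bnip3l, 0.048 for Fundc1 and 0.11 for Lamp2. In the libraries with no db in the title Bnip3 was at -0.23. With 1 library left out the ranges were -0.0068 to 0.23 for Atg13, -0.044 to 0.083 for Atg12, -0.019 to 0.075 for Gabarapl2, -0.014 to 0.064 for Uvrag, -0.036 to 0.17 for Sqstm1, -0.12 to 0.057 for Gabarapl1, -0.040 to 0.33 for Bnip3 and -0.010 to 0.11 for Pik3c3.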
